A study of Homo sapiens
Mus musculus and Homo sapiens with 21 samples.

Results

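How far the response of mouse brain to a metastasis depended on the brain region was measured as a difference between differences. For each mouse gene the change in forebrain, tumour-bearing minus tumour-free, was set against the same change in hindbrain. The comparison used 14 of the 21 libraries of the series, chosen by their region and tumour labels alone: 4 of tumour-free forebrain (FB), 4 of tumour-free hindbrain (HB), 3 of forebrain carrying metastases (FBMet) and 3 of hindbrain carrying metastases (HBMet). The hosts of all 4 groups were athymic nu/nu mice, which lack a functional thymus and so most mature T cells. The tumour was H2030-BrM3, a brain-seeking derivative of a human lung adenocarcinoma line, injected into the heart at 5 to 6 weeks of age. The labels of the tumour-free brains list the cell line as well and do not say whether those mice were injected. Metastases were cut out with the stroma around them, so every library is bulk tissue, and only reads assigned to mouse genes are described here. The labels do not say which piece of each region was taken, so a difference in the piece of tissue and a change in its host cells cannot be told apart. In bulk tissue, fewer cells of a type and less RNA per cell cannot be told apart.

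Brain regions differ in their resident neurons and, more mildly, in their glia and vessels. The hypothalamus and thalamus lie in the forebrain. Many of their neurons carry transcripts that are less common in cortex and striatum, such as some neuropeptide precursors and the vesicular glutamate transporter Slc17a6. Injury and tumour growth in brain are known to activate astrocytes and microglia, the resident macrophages, in whichever region they occur, and interferons induce a further set of antiviral genes in many cell types. A fall can be measured only where the tumour-free region expresses the gene, so each gene has a class: expressed in both tumour-free regions (a mean of at least 1 in each), in forebrain only, in hindbrain only, or in neither. A gene named below without a class is expressed in both.

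All levels are RPKM values (reads per kilobase, scaled to library depth) rescaled so that each library sums to 1000000. The forebrain response is FBMet minus FB and the hindbrain response HBMet minus HB, on the scale log2(value + 1), which understates the change of genes at low levels. The region difference is the forebrain response minus the hindbrain response, and a gene was called at an adjusted p under 0.05 (limma, Benjamini-Hochberg over 15777 genes). Levels may be compared between libraries for 1 gene; between genes they also depend on the length by which the authors divided.

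Depth recovered from the RPKM steps was 17747167 to 20432887 mouse reads in FB and 19338010 to 23034773 in HB, against 54450461 to 71916538 in FBMet and 52358107 to 86139416 in HBMet. Human reads made up 6.24% ± 1.23 of all reads in FBMet and 6.81% ± 1.14 in HBMet (SD, n = 3 each), and at most 0.0315% in any tumour-free library. The 3 FBMet libraries held 7.12%, 6.76% and 4.83% and the 3 HBMet libraries 7.41%, 7.52% and 5.49%; an exact permutation test of 3 against 3 cannot go below 0.1, and the part of human reads in the region differences was not tested. The region labels held: Tbr1, a transcription factor of cortical neurons, lay at 83.8 to 122 in FB and 97.3 to 132 in FBMet, and the cerebellar granule cell receptor gene Gabra6 at 79.6 to 187 in HB, 121 to 216 in HBMet and at most 0.134 in either forebrain group. Replicates 2, 3 and 4 of HB also held forebrain transcripts, with Tbr1 at 9.88, 13.4 and 6.50. In HB replicate 1 it stood at 0.404, and in HBMet at no more than 0.601. Replicate 1 of FB and of HB stood apart in another way: Fos, an activity-induced gene, was at 19.4 and 14.7 there and at 82.5 to 97.1 in the other tumour-free libraries. The gene groups in which these libraries changed the calls most are given also without them.

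Few genes were called for a difference in response between the 2 regions. At an unadjusted p under 0.05 (limma) there were 3086 of 15777 (19.6%), so genes not called may still differ. The region difference was called for 72 of 15777 genes (0.456% of genes tested), 40 with the higher response in forebrain (0.254%) and 32 with the lower (0.203%). Of the 14099 genes that both tumour-free regions express, 62 were called (0.44%), 35 higher and 27 lower. Calls numbered 6 of 373 genes in the forebrain-only class, 2 of 732 in the hindbrain-only class (Rnf213 and Tdo2, named after their values were seen) and 2 of 573 in the class that neither tumour-free region expresses (Cxcl10 and Gpnmb). The forebrain response alone was called for 4793 genes (30.4%), 2265 higher (14.4%) and 2528 lower (16%), and the hindbrain response for 512 (3.25%), 460 higher (2.92%) and 52 lower (0.33%). Hindbrain calls were thus rare among all genes, and a list below with 0 of them is not set apart by that. A call in 1 region only is not a test of the difference: of the 4360 genes called in forebrain only, 67 had a called region difference, and for 2154 the 95% interval of that difference included 0. The forebrain response was at least 2-fold and called for 322 genes and the hindbrain response for 160, and the SD of the response across genes was 0.37 in forebrain and 0.26 in hindbrain on the log2 scale.

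The 72 calls followed the forebrain response. Of these genes, 67 were called in forebrain alone, 5 in both regions (Aloxe3, Cxcl10, Gpnmb, S1pr3 and Tdo2) and 0 in hindbrain alone. All 40 genes with a higher region difference rose in forebrain, and 30 of the 32 with a lower one fell there; the other two, Gpnmb and S1pr3, rose in both regions and more in hindbrain. The hindbrain response was within 0.5 on the log2 scale for 66 of the 72. Its SD across all genes tested was 0.26, so such values were common and do not set the calls apart. The size of the region difference was at least 2-fold for 28 genes, with a median of 0.89 and a smallest value of 0.45 on the log2 scale. On the linear scale 70 of the 72 kept their sign; the exceptions, named after their values were seen, were A2m and Irx2, whose hindbrain levels are far above those of forebrain. For 62 of the 72 the tumour-free regions already differed (52.8% of all genes did), 29 with the higher level in forebrain and 33 in hindbrain.

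**Figure D1:**
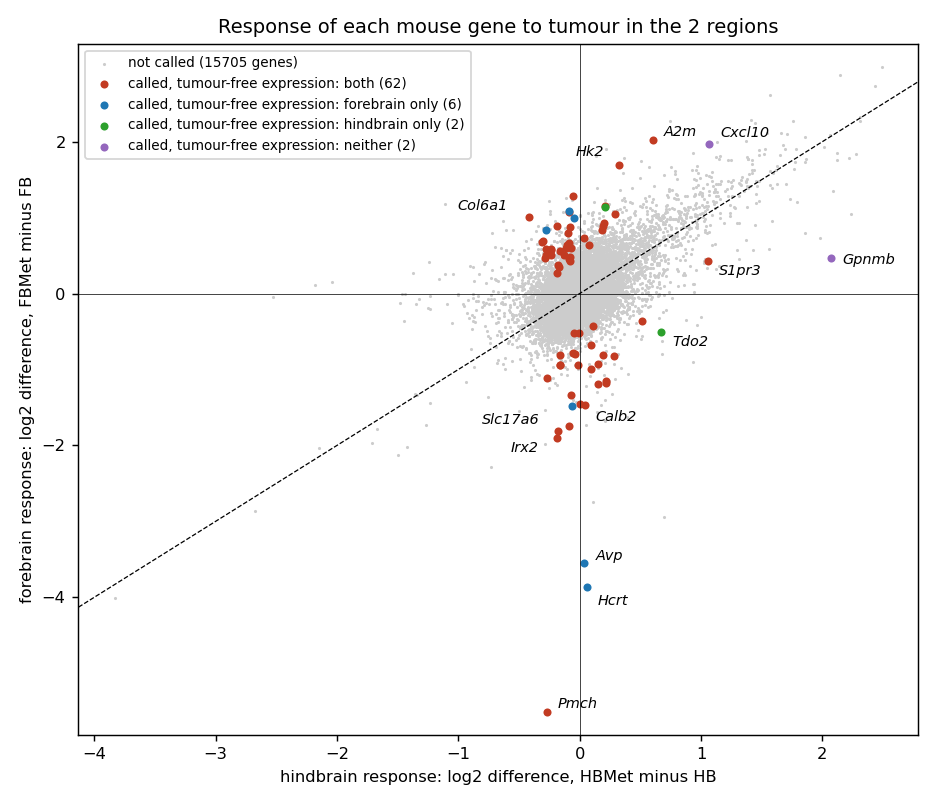
Forebrain response (vertical axis, FBMet minus FB) against hindbrain response (horizontal axis, HBMet minus HB) for the 15777 genes tested, both as differences of log2(value + 1), with the 72 genes called for the region difference coloured by the tumour-free regions that express them. Most coloured points lie near 0 on the horizontal axis, as 66 of the 72 had a hindbrain response within 0.5, and Pmch and Hcrt lie lowest. Small hindbrain responses were common among all genes tested (SD 0.26).

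How many genes were called depended on single libraries. Leaving out 1 library at a time gave between 12 calls (without HBMet replicate 1) and 343 (without HB replicate 1); the count was 248 without FB replicate 1 and 196 without FBMet replicate 3, and 12 to 42 without any other single library. With replicate 1 of FB and of HB both left out there were 631 calls, 378 higher and 253 lower, and all 72 were among them. With voom on reads recovered from the RPKM steps, scaled by the trimmed mean of M values, 409 genes were called, and the split moved from 40 higher and 32 lower to 313 higher and 96 lower; with quantile normalization it was 82 and 47, and with library totals in voom 89 and 84. With median-of-ratios scaling it was 60 and 34. None of the 72 changed sign in any of the 28 other settings. Those settings reused all or most of the same libraries, so a kept sign is no test of the calls. In every setting in which they were tested 9 were called. They were Pmch, Hcrt, Nr2f2, Gpnmb and, named after their values were seen, Chst8, Ntng1, Pcdh20, Myh6 and the forebrain-only gene Slc4a11. The least stable of the calls named below were Hk2, Tfcp2l1, Fbln2, Mdn1, Agt, Stmn2, Cxcl10 and Robo3, each called in 10 to 13 other settings. After subtraction of the tumour-free mean of their own region, the tumour-bearing libraries did not overlap between regions for all 72, as for 42.1% of all genes tested.

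**Figure D2:**
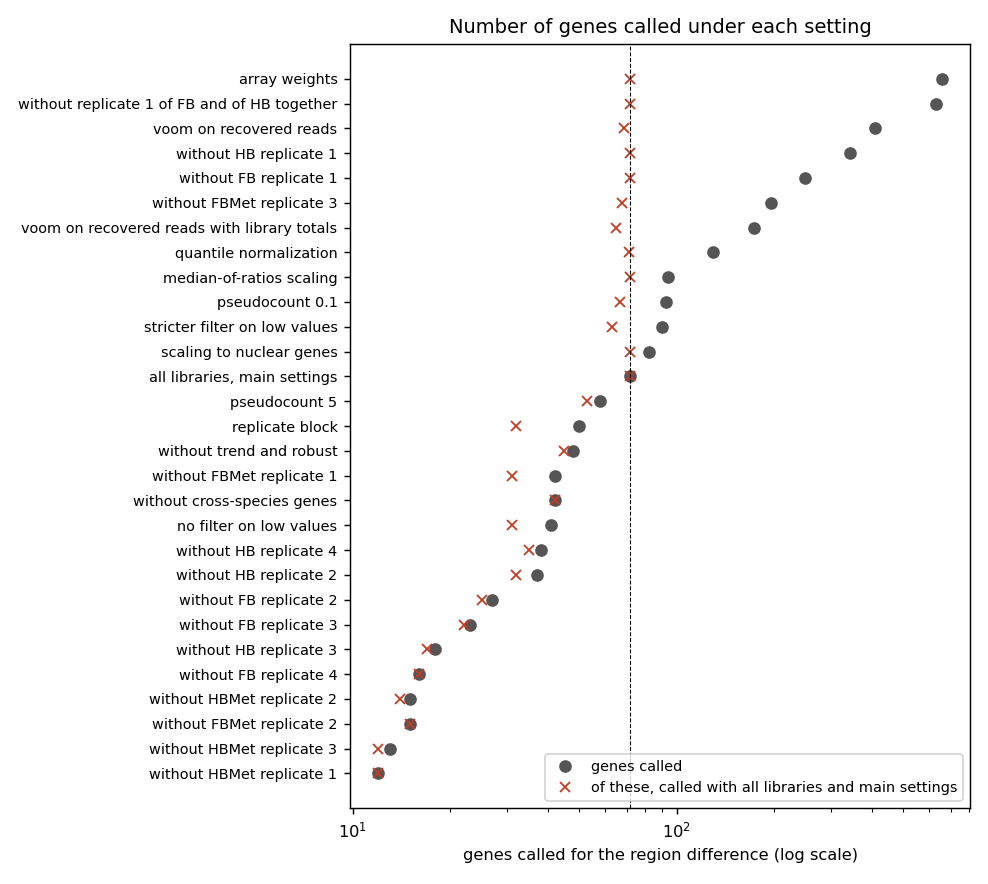
Number of genes called for the region difference (logarithmic axis) under each setting, with crosses for the calls shared with the 72 of the reported analysis. Counts run from 12 without HBMet replicate 1 to 660 with array weights.

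The largest region differences were those of the hypothalamic neuropeptides Pmch, Hcrt and Avp, which fell in tumour-bearing forebrain. Of 20 peptide and hormone genes of this list 16 were tested, 10 of them expressed in both tumour-free regions, 5 in forebrain only and 1 in hindbrain only. In forebrain 9 of the 16 fell and 0 rose, and in hindbrain 0 fell or rose. Over all genes tested 16% fell in forebrain and 0.33% in hindbrain, so 0 hindbrain falls do not set the list apart. For the region difference 3 were called, all lower: Pmch, Hcrt and Avp. The median region difference of the list was −0.37, against −0.02 over all genes tested. The summed level of the list was 529 to 667 in FB and 290 to 365 in FBMet, and 163 to 266 in HB and 135 to 193 in HBMet.

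Pmch encodes the precursor of melanin-concentrating hormone, made by neurons of the lateral hypothalamus. Its level in the 4 FB libraries was 59.6, 59.7, 61.2 and 78.5, and in the 3 FBMet libraries 0.716, 0.313 and 0.301. In HB it was 0.749, 1.26, 1.54 and 1.10 and in HBMet 0.975, 0.675 and 0.691. All FBMet libraries thus lay below all FB libraries, at a mean 146-fold lower (2804 reads in FB, 45 in FBMet), while the ranges of the 2 hindbrain groups overlapped. The region difference was −5.24 (SE 0.20, adjusted p = 3.10e-09, limma). The mean in HB, 1.16, only just places Pmch in the class expressed in both regions, so a fall of like size could not have been seen in hindbrain.

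Hcrt encodes the orexin precursor, made in neighbouring neurons of the lateral hypothalamus. It stood at 11.9, 13.8, 12.8 and 16.3 in FB (432 reads in all) and had 0 reads in all 3 FBMet libraries. Against a floor of 3 reads over the whole FBMet group this is at least 352-fold lower. Hindbrain held 3 reads in HB and 10 in HBMet, so Hcrt belongs to the forebrain-only class and no hindbrain fall could be seen. Its fitted region difference of −3.93 (SE 0.16, adjusted p = 4.00e-09, limma) depends on the pseudocount.

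Avp, the vasopressin precursor, was at 49.5, 47.2, 74.4 and 25.6 in FB and at 6.17, 0.850 and 3.85 in FBMet, so that the groups did not overlap. In both hindbrain groups it stayed at or below 0.808, and it too is expressed in forebrain only. The region difference was −3.59 (SE 0.56, adjusted p = 0.0223, limma). The region difference of Avp was called in 21 of 28 other settings, and the call was lost with a pseudocount of 0.1 (−4.07, adjusted p = 0.0505) and with voom on recovered reads (−4.05, adjusted p = 0.159). Oxt, the oxytocin precursor and another forebrain-only gene, named here after its values were seen, fell in forebrain from a mean of 26.6 to 7.99, with a region difference of −1.79 that missed the threshold (adjusted p = 0.0958). For genes of this list that both regions express, a hindbrain change could be measured. Th, the rate-limiting enzyme of catecholamine synthesis, fell in forebrain from 12.1 to 3.46 and was at 15.9 in HB and 12.5 in HBMet, with a region difference of −1.25 (adjusted p = 0.157). Sst, the somatostatin precursor, had a region difference of −0.11 (adjusted p = 0.836). Both were named after their values were seen.

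**Figure D3:**
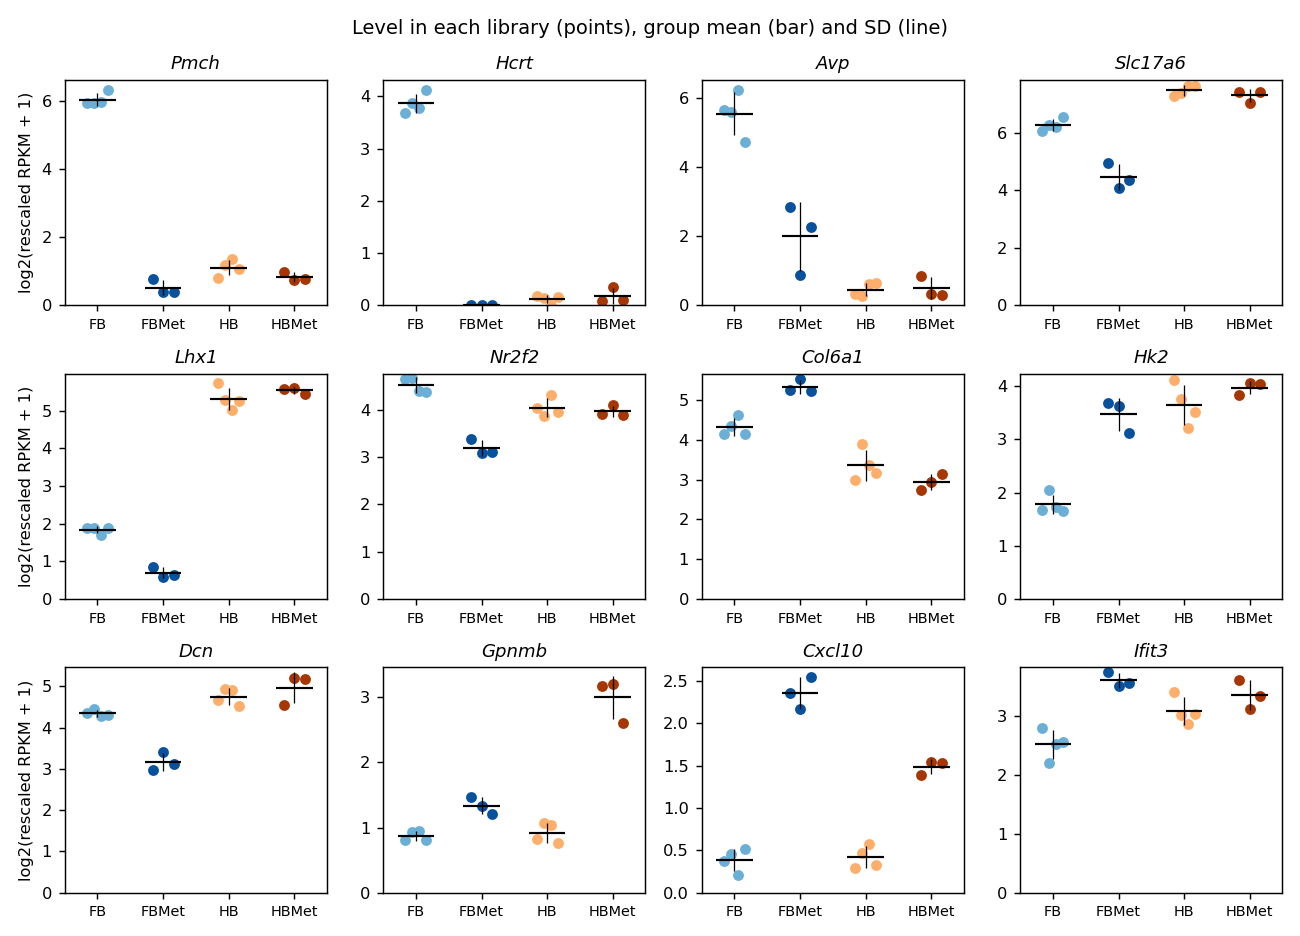
Levels of 12 genes in each of the 14 libraries, as log2(rescaled RPKM + 1), with the group mean as a bar and the SD as a line. Pmch, Hcrt, Avp, Slc17a6, Lhx1, Nr2f2 and Dcn are lower in each of the 3 FBMet libraries than in each of the 4 FB libraries, Gpnmb is highest in the 3 HBMet libraries and Cxcl10 in the 3 FBMet libraries.

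Genes of thalamic and midbrain neurons formed the other large group with a lower response in forebrain. All 20 genes of this list were tested, 16 of them expressed in both tumour-free regions, 1 in forebrain only and 3 in hindbrain only, so that for most of them a change could be seen on both sides. In forebrain 12 fell (16% of all genes tested did) and 0 rose, and in hindbrain 0 were called (3.25% of all genes were). The region difference was called lower for 4: Irx2, Slc17a6, Calb2 and Lhx1. Its median over the list was −1.05. The summed level was 383 to 516 in FB and 225 to 287 in FBMet, without overlap, and 898 to 1139 in HB and 985 to 1015 in HBMet. Without replicate 1 of FB and of HB 9 of the 20 were called, all lower.

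Slc17a6, which loads glutamate into synaptic vesicles of thalamic, midbrain and hindbrain neurons, is expressed in both regions. It stood at 64.9, 76.9, 72.4 and 92.6 in FB and at 29.9, 15.7 and 19.4 in FBMet. In HB it was 152, 166, 198 and 196 and in HBMet 169, 131 and 172. The forebrain groups did not overlap and the hindbrain groups did. Its region difference was −1.63 (SE 0.26, adjusted p = 0.0223, limma). Lhx1, a LIM homeodomain factor of several neuron types, showed the same order at a lower forebrain level. It was at 2.67, 2.71, 2.26 and 2.72 in FB and 0.818, 0.499 and 0.554 in FBMet, against 31.7 to 52.0 in HB and 42.5 to 47.4 in HBMet, with a region difference of −1.37 (SE 0.19, adjusted p = 0.00503).

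Irx2, an Iroquois homeodomain factor, is also expressed in both regions, at a mean of 4.81 ± 1.26 in FB (SD, n = 4) and 0.568 ± 0.454 in FBMet (n = 3), and at 54.2 ± 6.62 in HB and 48.6 ± 14.5 in HBMet. Its region difference was −1.71 (SE 0.31, adjusted p = 0.0336). On the linear scale the order turned: the mean in hindbrain was lower by more units than in forebrain, without a called hindbrain change. Calb2, the calcium-binding protein calretinin, fell in forebrain from 66.3 ± 14.98 to 24.0 ± 9.66 and was at 158 ± 16.5 in HB and 163 ± 12.6 in HBMet (region difference −1.51, SE 0.30, adjusted p = 0.0478). Tcf7l2, a Wnt pathway factor of thalamic neurons among the 40 genes chosen whatever their result, had a region difference of −1.64 that was not called (SE 0.48, adjusted p = 0.109). It fell in forebrain from 17.8 to 5.85, and its values in HB ranged from 10.2 to 30.7.

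Nr2f2, known as COUP-TFII, an orphan nuclear receptor of neurons and vessels, had a higher level in forebrain than in hindbrain before the tumour. It was at 24.2, 24.4, 20.1 and 19.7 in FB and 9.41, 7.51 and 7.56 in FBMet, and at 13.7 to 19.0 in HB and 13.9 to 16.2 in HBMet. The forebrain groups did not overlap, the hindbrain groups did, and the region difference was −1.26 (SE 0.17, adjusted p = 0.00503). Syt9, a synaptotagmin of secretory vesicles, fell in forebrain from 14.5 ± 2.16 to 5.77 ± 1.13 and stood at 24.4 ± 6.34 in HB and 26.6 in HBMet (−1.35, adjusted p = 0.032). Rab37, a Rab GTPase of secretory granules, fell from 5.65 ± 2.09 to 0.929 ± 0.284, with hindbrain at 15.3 ± 1.67 and 14.4 ± 1.07 (−1.66, adjusted p = 0.0229). Stmn2, a tubulin-binding protein of neurons, had the smallest size among the named calls: it fell from 393 ± 19.4 in FB to 276 in FBMet and was at 438 ± 18.8 in HB and 436 ± 7.43 in HBMet (−0.51, adjusted p = 0.0485). All 4 genes are expressed in both tumour-free regions. In the list of 20 pan-neuronal genes 13 fell (16% of all genes tested did) and 1 rose in forebrain. In hindbrain 0 were called, where 3.25% of all genes were. Stmn2 was the single call for the region difference, and the 95% interval lay within 2-fold either way for all 20.

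Genes of cortical and striatal neurons had region differences mostly above 0, none of which passed the test. Of 20 such genes, 17 expressed in both regions and 3 in forebrain only, 0 were called for the region difference and 17 had a value above 0 (46.7% of all genes tested did), with a median of 0.55. In forebrain 7 rose and 2 fell, and in hindbrain 0 were called. Drd1, a dopamine receptor of striatal neurons that is expressed in forebrain only, rose there from 22.9 to 36.8 and had the smallest adjusted p of the list, 0.0675, with a region difference of 0.80; it was named after its values were seen. Without replicate 1 of FB and of HB 7 of the 20 were called higher. Part of this list and of the forebrain identity genes was present in HB replicates 2, 3 and 4 and low in HBMet. Camk2a, the kinase of forebrain excitatory neurons, named for that check, had a mean of 324 in HB and 137 in HBMet, with a hindbrain response of −1.11 (adjusted p = 0.0582). Tbr1 had a region difference of 2.29 that was not called (SE 0.87, adjusted p = 0.189), with means of 102 in FB and 110 in FBMet and of 7.54 in HB and 0.412 in HBMet. Without HB replicate 1 it was called, at 3.02 (adjusted p = 9.76e-05, limma), as it was without replicate 1 of FB and of HB, at 3.11 (adjusted p = 0.000232). Of the 20 forebrain identity genes, 14 expressed in both regions, 5 in forebrain only and 1 in neither, 0 were called and the median was 0.48. Without HB replicate 1 there were 9 calls among them and without replicate 1 of FB and of HB 8, all higher. The part of these forebrain transcripts in other region differences was not tested.

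Cerebellar genes had region differences mostly below 0, again without a call. Of 20, 12 expressed in both regions and 8 in hindbrain only, 0 were called, 17 were below 0 and the median was −0.55, and without replicate 1 of FB and of HB 7 were called lower. Gabra6 and Pcp2, a Purkinje cell gene, both hindbrain only, had region differences of −0.59 (SE 0.35) and −0.31 (SE 0.38). Their levels in HB ranged from 79.6 to 187 and from 128 to 414. The 19 hindbrain identity genes tested, all hindbrain only, gave 0 calls and a median of 0.29. With voom on recovered reads their median was −0.85 (−0.91 with library totals) and En1, a midbrain-hindbrain patterning factor named after its values were seen, was called lower. Among them Hoxb4 and En2, patterning factors of hindbrain and of the midbrain-hindbrain border, had values of 0.24 (SE 0.23) and −0.44 (SE 0.33).

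**Figure D4:**
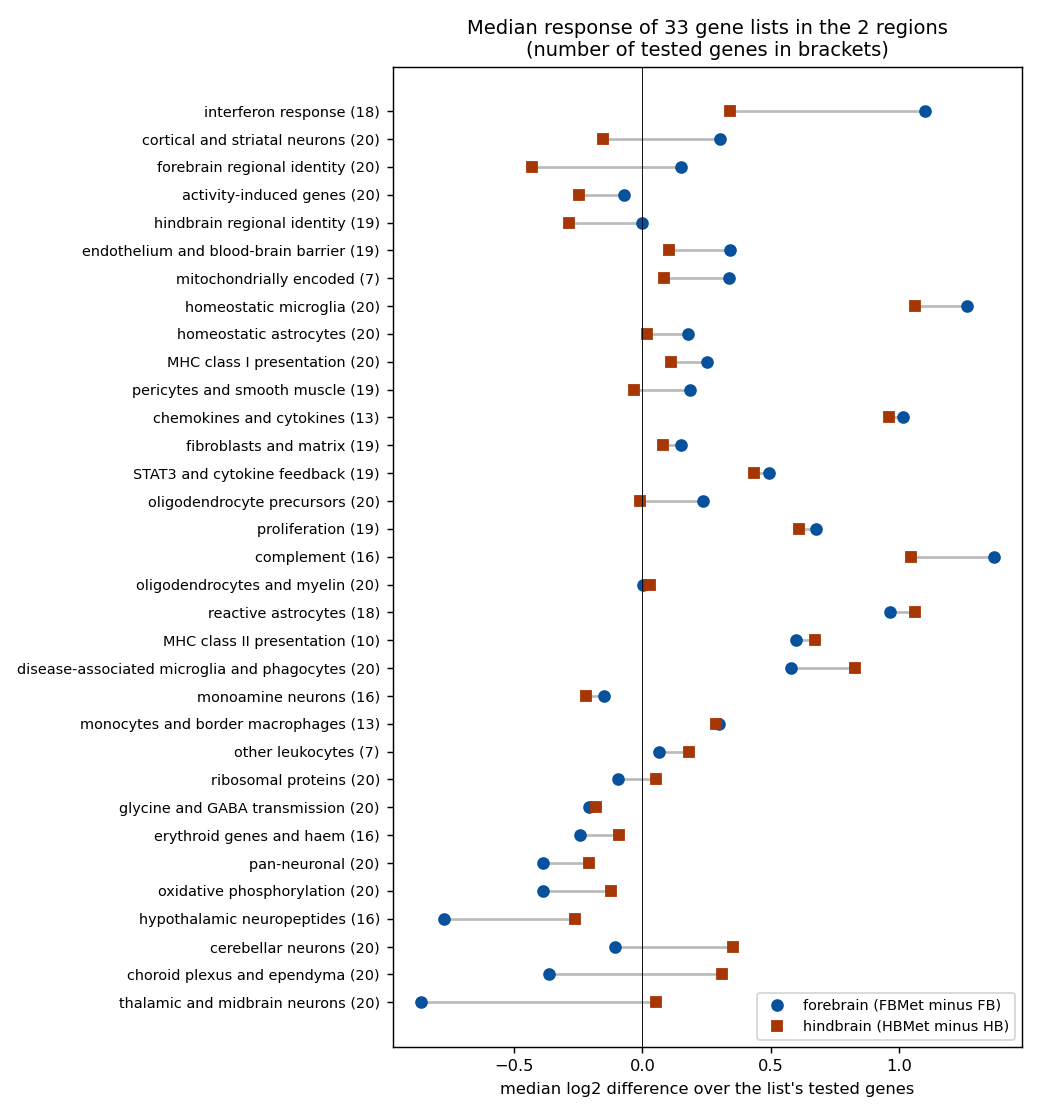
Median forebrain and hindbrain response of each of 33 gene lists on the log2(value + 1) scale, joined by a line and ordered by the median region difference. Thalamic and midbrain neurons (−1.05), the choroid plexus (−0.68) and cerebellar neurons (−0.55) stand at one end and interferon response (0.64) and cortical and striatal neurons (0.55) at the other.

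Among non-neuronal genes with a lower response in forebrain, Agt, the angiotensinogen made by astrocytes, fell in forebrain from 35.0 ± 8.62 to 12.2 ± 3.88 and stood at 81.0 ± 12.7 in HB and 80.9 ± 10.8 in HBMet (region difference −1.46, SE 0.29, adjusted p = 0.0485). It was the single call among 20 genes of homeostatic astrocytes, of which 7 rose and 1 fell in forebrain and 0 rose in hindbrain. The median region difference of the list was 0.21. Aqp4, the astrocyte water channel, rose in forebrain from 42.7 to 83.3 and was at 131 in HB and 177 in HBMet, with a region difference of 0.50 (SE 0.18, adjusted p = 0.165). Both genes are expressed in both regions.

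Matrix genes were split. Col6a1, a chain of collagen VI, and Dcn, the small proteoglycan decorin, are both expressed in both regions and were called in opposite directions. Col6a1 was at 16.8, 19.3, 23.8 and 16.8 in FB and 37.1, 45.0 and 36.1 in FBMet, against 6.95, 13.9, 9.40 and 7.92 in HB and 5.69, 6.66 and 7.80 in HBMet. The FBMet libraries all exceeded FB, while HBMet overlapped the low end of HB (region difference 1.43, SE 0.26, adjusted p = 0.0336, limma). Dcn was at 19.4, 20.8, 18.4 and 18.7 in FB and 6.85, 9.63 and 7.64 in FBMet, against 24.2, 29.4, 28.8 and 21.8 in HB and 22.2, 35.6 and 35.0 in HBMet (−1.40, SE 0.22, adjusted p = 0.0178). Decorin thus fell in forebrain alone, as 1 of 19 genes tested of fibroblasts and matrix; 6 of the 19 rose in forebrain and 2 in hindbrain. Fbln2, a fibulin of basement membranes, rose in forebrain from 6.79 ± 0.954 to 11.5 ± 2.12 and stood at 7.85 ± 1.00 in HB and 6.16 ± 0.946 in HBMet (0.98, adjusted p = 0.0427). Col1a1, the main chain of collagen I, had a region difference of 0.27 (SE 0.36).

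Hk2, the hexokinase induced by low oxygen and high glycolytic demand, had the higher forebrain response against a hindbrain level that was already high. It was at 2.20, 3.15, 2.31 and 2.16 in FB and 11.8, 11.3 and 7.64 in FBMet, and at 16.3, 12.5, 8.29 and 10.4 in HB and 13.2, 15.7 and 15.3 in HBMet. Its region difference was 1.36 (SE 0.26, adjusted p = 0.0391). A2m, the broad protease inhibitor alpha-2-macroglobulin, followed the same order: 3.25 ± 0.7496 in FB, 16.6 ± 5.32 in FBMet, 26.7 ± 2.76 in HB and 41.1 ± 3.82 in HBMet (1.42, SE 0.25, adjusted p = 0.0336). On the linear scale A2m gained more units in hindbrain, although its hindbrain response was not called (0.61, adjusted p = 0.103). Both genes are expressed in both regions.

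Other genes with a higher response in forebrain were Tfcp2l1, a grainyhead-family transcription factor, and Lrp4, a receptor of the LDL receptor family that acts in Wnt and agrin signalling. Tfcp2l1 rose in forebrain from 2.32 ± 0.243 to 7.26 ± 2.07 and was at 1.15 ± 0.411 in HB and 1.05 ± 0.212 in HBMet (1.34, adjusted p = 0.0336). Lrp4 rose from 15.9 ± 0.865 to 26.8 ± 6.23 and was at 13.6 ± 1.85 and 10.7 ± 0.294 in hindbrain (1.00, adjusted p = 0.0336). Trank1 rose from 401 ± 44.9 to 745 ± 118 and was at 203 ± 32.9 and 177 ± 5.67 (1.08, adjusted p = 0.0266). Mdn1, a giant ATPase of ribosome assembly, rose from 63.8 ± 9.65 to 117 ± 14.4 and was at 123 ± 14.9 and 117 ± 18.6 (0.95, adjusted p = 0.0479). All 4 are expressed in both regions. So are the long noncoding RNAs Meg3 and Ftx: Meg3, an imprinted transcript of neurons, rose from 1788 ± 173 to 3830 ± 1015 and was at 2458 ± 195 and 2311 ± 254 (1.16, adjusted p = 0.0247), and Ftx, a transcript of the X-inactivation centre, rose from 6.36 ± 0.507 to 15.5 ± 3.15 and was at 10.2 ± 1.24 and 11.9 ± 1.78 (0.94, adjusted p = 0.0427). Whether reads were counted by strand is not given in the sources used here, so overlapping genes on the other strand cannot be told apart for these transcripts.

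The length by which the authors divided was longer at the median for the genes called higher, though not for Meg3, Mdn1 and Trank1. It is recovered from the RPKM steps and is not mRNA length: for Mdn1 it was 943 bases and for Trank1 835 bases, far short of their known mRNAs. Over the decile of genes with the longest such length, the median response of a library was 0.09 to 0.11 in FBMet and −0.07 to −0.02 in HBMet. Single tumour-free libraries lay at −0.11 to 0.06 in FB and −0.04 to 0.03 in HB around the same tumour-free means. The 40 genes called higher had a median of 2340 bases, the 32 called lower 1591 bases and all genes tested 1549 bases. The part of this length in these calls was not tested.

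Robo3, an axon guidance receptor, belongs to the forebrain-only class. It was at 3.70, 3.22, 3.77 and 3.36 in FB and 5.14, 9.12 and 7.41 in FBMet, and at most 0.702 in hindbrain, where HB held 121 reads and HBMet 120 (1.12, SE 0.22, adjusted p = 0.0462). Of the named calls it was among the least stable, called in 10 of 28 other settings. Ighm, the heavy chain of IgM, an antibody class made by B cells, which athymic mice keep, is expressed in both regions. It rose in forebrain from 26.0 ± 0.775 to 37.6 ± 2.45 and was at 24.97 ± 4.14 in HB and 20.3 ± 1.92 in HBMet (0.79, SE 0.15, adjusted p = 0.0365). It was the single call among 7 tested genes of other leukocytes. The light chain gene Igkc, of the same list and expressed in hindbrain only, had a region difference of −0.14 (adjusted p = 0.897).

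Aloxe3, an epidermis-type lipoxygenase expressed in both regions, was called in opposite directions in the 2 regions. It was at 6.70, 9.18, 8.98 and 8.07 in FB and 6.73, 6.19 and 5.47 in FBMet, against 7.34, 5.69, 5.55 and 5.41 in HB and 9.03, 8.54 and 9.33 in HBMet. FBMet overlapped FB at its lowest library and HBMet lay above all HB libraries (region difference −0.88, SE 0.16, adjusted p = 0.0336). Tdo2, a tryptophan-degrading enzyme expressed in hindbrain only, was the other such gene, named after its values were seen. Its mean was 0.814 in FB and 0.274 in FBMet (0.336 of the tumour-free level), and 1.38 in HB and 2.76 in HBMet (1.996-fold). The FB mean is under the threshold for expression, so the forebrain fall starts from a low level. The region difference was −1.18 (SE 0.21, adjusted p = 0.0336, limma).

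Gpnmb was the gene with the clearest higher response in hindbrain. It encodes a transmembrane glycoprotein of phagocytes that is part of the disease-associated microglia signature. Its level was 0.757, 0.914, 0.926 and 0.748 in FB and 1.77, 1.52 and 1.31 in FBMet, and 0.765, 1.09, 1.06 and 0.689 in HB and 8.004, 8.22 and 5.11 in HBMet. Every tumour-bearing library exceeded the tumour-free libraries of its region, by 1.84-fold in forebrain and 7.89-fold in hindbrain on the means. This gave a region difference of −1.61 (SE 0.20, adjusted p = 0.00431). Gpnmb belongs to the class that neither tumour-free region expresses; as a gene that rose, it needed no starting level to be seen. It was the single call among 20 genes of disease-associated microglia and phagocytes, of which 15 rose in forebrain and 10 in hindbrain, with a median region difference of −0.05. Lgals3, galectin-3 of phagocytes, named after its values were seen, rose from 1.47 to 2.83 in forebrain and from 1.55 to 6.48 in hindbrain, with a region difference of −0.97 that was not called (adjusted p = 0.0904). Itgax and Cst7, also of this signature, expressed in neither tumour-free region and named after their values were seen, rose in both regions with region differences of −0.04 and 0.02.

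Cxcl10, an interferon-induced chemokine that attracts T cells and other leukocytes, rose in both regions and more in forebrain. Its level was 0.298, 0.373, 0.160 and 0.427 in FB and 4.14, 3.505 and 4.83 in FBMet, and 0.229, 0.385, 0.495 and 0.258 in HB and 1.61, 1.92 and 1.89 in HBMet. The means rose 13.2-fold and 5.29-fold, and the 2 tumour-bearing groups did not overlap. This gave a region difference of 0.90 (SE 0.17, adjusted p = 0.0365), and like Gpnmb the gene belongs to the class that neither tumour-free region expresses. It was called in 12 of the 27 other settings in which it was tested.

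The interferon response list had a higher median in forebrain without a call. Of 18 genes tested, 15 expressed in both tumour-free regions, 2 in hindbrain only and 1 in neither, 17 rose in forebrain and 7 in hindbrain, and none fell in either. All 18 region differences were above 0, from 0.07 to 1.25 with a median of 0.64, and 13 had an unadjusted p under 0.05 (9.58% of all genes were above 0 at that level). By limma with Benjamini-Hochberg adjustment 0 of 18 passed, the smallest adjusted p being 0.0537 for Isg15, a hindbrain-only gene; 6 passed without replicate 1 of FB and of HB, and 6 with voom on recovered reads (3 with library totals). Ifit3, an antiviral effector expressed in both regions, was at 5.94, 3.62, 4.75 and 4.90 in FB and 12.5, 10.4 and 10.8 in FBMet, and at 9.68, 7.15, 6.31 and 7.201 in HB and 11.2, 7.69 and 9.20 in HBMet. All FBMet libraries lay above FB and above HB, and HBMet overlapped the upper end of HB (region difference 0.81, SE 0.22, adjusted p = 0.0901). The summed level of the list was 61.2 to 78.3 in FB, 80.0 to 117 in HB, 149 to 178 in FBMet and 131 to 151 in HBMet.

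**Figure D5:**
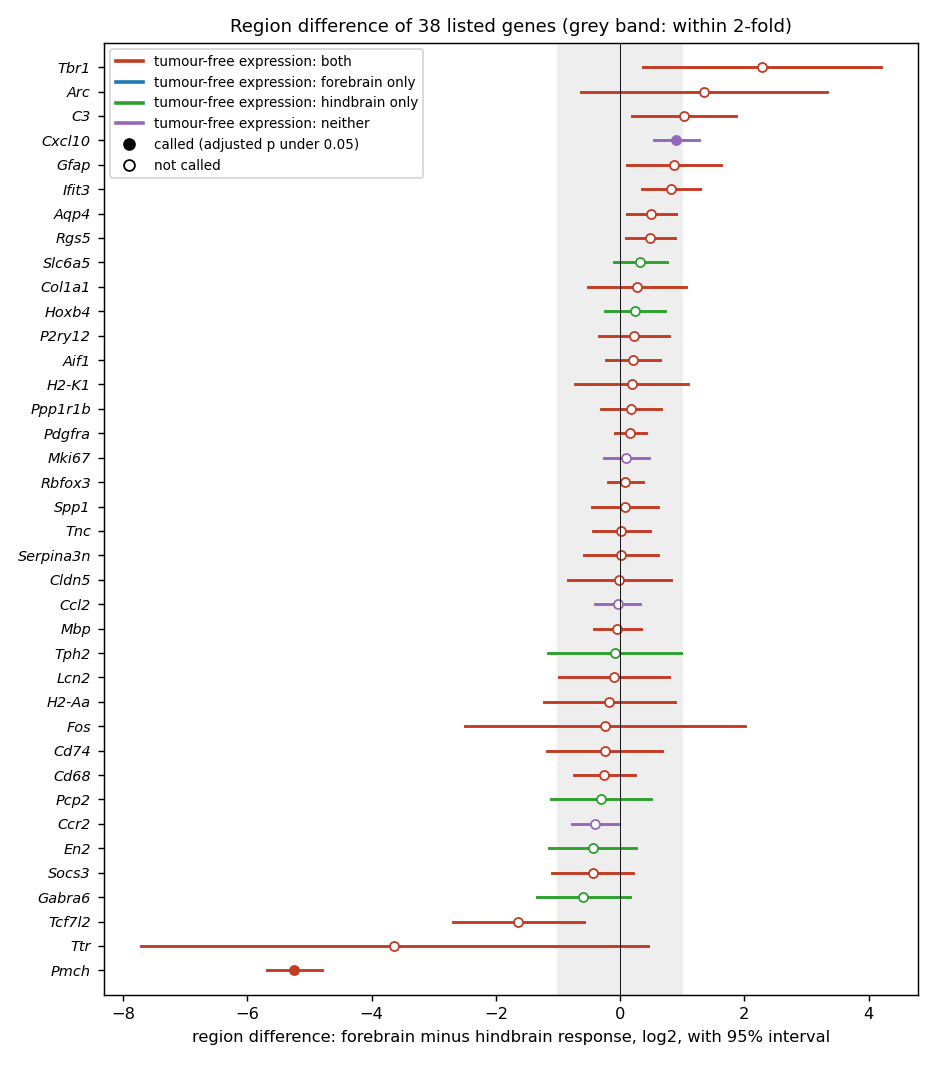
Region difference with its 95% interval for 38 of the 40 genes chosen whatever their result, on the log2(value + 1) scale, with a grey band for differences within 2-fold and filled points for called genes. Pmch (−5.24) and Cxcl10 (0.90) are the filled points, and the interval of Ttr reaches from −7.71 to 0.44.

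Reactive astrocyte and microglial genes rose in both regions. Among 18 reactive astrocyte genes tested 15 rose in forebrain and 15 in hindbrain, with medians of 0.96 and 1.06 and a median region difference of −0.01; Cxcl10 was called higher and S1pr3, a sphingosine-1-phosphate receptor named after its values were seen, lower. S1pr3 is expressed in both regions and rose from 2.80 to 4.11 in forebrain and from 1.59 to 4.40 in hindbrain (−0.63, adjusted p = 0.0365). Gfap, the intermediate filament of astrocytes, rose from 149 ± 28.2 to 736 ± 181 in forebrain and from 371 ± 120 to 963 ± 189 in hindbrain (0.87, SE 0.35, adjusted p = 0.198). Lcn2 and Serpina3n, secreted proteins of reactive astrocytes, rose in both regions with region differences of −0.10 (SE 0.41) and 0.02 (SE 0.28). Socs3, the feedback inhibitor of cytokine signalling, rose from 6.88 to 26.7 in forebrain and from 4.76 to 26.6 in hindbrain (−0.44, SE 0.30, adjusted p = 0.443). All 4 are expressed in both regions.

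Of 20 homeostatic microglia genes, all expressed in both regions, 20 rose in forebrain and 16 in hindbrain, and 0 were called for the region difference by limma (4 at an unadjusted p under 0.05, as were 3086 of the 15777 genes tested, median 0.22). Aif1, the microglial protein Iba1, rose from 8.37 to 26.5 and from 4.70 to 13.4 (0.20, SE 0.20), and P2ry12, the purine receptor of resting microglia, had responses of 0.77 and 0.55, called in forebrain (0.22, SE 0.26). Cd68, a lysosomal protein of macrophages, rose in both (−0.26, SE 0.23). Of 16 complement genes 13 rose in forebrain and 10 in hindbrain, and 0 were called for the difference (3 at an unadjusted p under 0.05). C3, the central complement component, had a region difference of 1.03 (SE 0.39, adjusted p = 0.178), with 2.57 in FB, 8.55 in FBMet, 21.96 in HB and 27.3 in HBMet. Ccl2 and Ccr2, the monocyte chemokine and its receptor, both in the class expressed in neither region, had region differences of −0.04 (SE 0.17) and −0.40 (SE 0.18, adjusted p = 0.232). Of 20 genes of oligodendrocyte precursors, 19 expressed in both regions and 1 in neither, 8 rose in forebrain and 0 in hindbrain, and 0 were called for the region difference, with a median of 0.12. With voom on recovered reads 3 were called higher, as were 3 without replicate 1 of FB and of HB. For MHC genes, H2-K1 stood at 0.19 (SE 0.42), Cd74 at −0.25 (SE 0.43) and H2-Aa at −0.17 (SE 0.49), all expressed in both regions.

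For many genes the size of the region difference could be bounded. Of 433 genes called in both regions, 417 rose and 14 fell in both, 5 had a called region difference, and for 391 the 95% interval lay within 2-fold. Over all genes tested 91.3% had an interval within 2-fold, so such intervals do not set the genes called in both regions apart. Among lists, all 20 genes of oligodendrocytes and myelin, of ribosomal proteins and of oxidative phosphorylation had such intervals. These bound a difference and show no shared response. Of the ribosomal protein genes 0 were called in either region, and of the myelin genes 3 rose in forebrain and 0 in hindbrain. Mbp, a main protein of myelin, had a region difference of −0.05 (SE 0.18). The oxidative phosphorylation genes fell in forebrain in 16 of 20 cases (16% of all genes did) and in hindbrain in 0 (0.33% of all genes did). By limma 0 of 20 were called for the region difference (10 at an unadjusted p under 0.05, median −0.26). Mki67, the marker of dividing cells, rose from 0.646 to 3.46 in forebrain and from 0.276 to 2.21 in hindbrain, with a region difference of 0.10 (SE 0.17), and belongs to the class expressed in neither region. Its sign turned with a pseudocount of 0.1 (−0.40) and with voom (−0.58, and −0.66 with library totals).

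Vessel and choroid plexus genes gave no call. In the 19 endothelial genes tested 8 rose in forebrain and 1 in hindbrain, with a median region difference of 0.25, and Cldn5, the tight junction protein of brain endothelium, stood at −0.01 (SE 0.39). Rgs5, a pericyte gene, rose in forebrain from 53.4 to 79.3 and was at 61.7 in HB and 64.1 in HBMet (0.48, SE 0.18, adjusted p = 0.178). The 20 choroid plexus and ependymal genes, all expressed in both regions, had a median of −0.68 and a wide spread. Ttr, the transthyretin of choroid plexus, was at 232 to 836 in FB and at 1154, 11.0 and 19.2 in FBMet, so that 1 of the 3 libraries lay above FB and the other two below it (−3.64, SE 1.84, adjusted p = 0.305). The remaining genes described whatever their result were not called: Rbfox3 (0.08, SE 0.13), Pdgfra (0.16, SE 0.12), Ppp1r1b (0.18, SE 0.22), Tph2 (−0.09, SE 0.50), Slc6a5 (0.32, SE 0.20), Tnc (0.02, SE 0.21), Spp1 (0.08, SE 0.25), Fos (−0.24, SE 1.02) and Arc (1.35, SE 0.90). Rbfox3, Pdgfra, Ppp1r1b, Tnc, Spp1, Fos and Arc are expressed in both regions, and Tph2 and Slc6a5 in hindbrain only. The wide errors of Fos and Arc include the low values of replicate 1 of FB and of HB.

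At the threshold, the last called genes were Dync1h1, Agt and Stmn2, each at an adjusted p of 0.0485, and the first that were not called were Abca1 at 0.0505 and Cct6a and Cnrip1 at 0.0513.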

How the data were processed

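Bulk RNA-seq of mouse brain with and without human lung cancer metastases was used. Per the labels' protocols, tissue was flash frozen and total RNA was made into standard Illumina libraries. The authors deposited RPKM values per mouse gene; the builds mm10 (GRCm38) and hg38 (GRCh38) come from the submitters' processing notes, while the aligner and counter, and how reads fitting both species were handled, are not given in those notes or the labels. Each library was rescaled to a sum of 1000000. Genes with at least 1 in at least 3 of 14 libraries were tested on log2(value + 1) with limma 3.58.1 in R 4.3.3 (1 fit with 4 group means, trend and robust, Benjamini-Hochberg). Whole reads were recovered from the RPKM steps for 100% of the 32644 mouse genes above 0 (tolerance 0.02, or 0.05 where that gave no solution), which gave the depth, and were tested with limma's voom (409 genes called with factors from the trimmed mean of M values, 173 with library totals, an alternative chosen after seeing the data). The scripts were tested on simulated data.

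The rule for named genes took, among calls with a group mean of at least 5 and tumour-bearing libraries that did not overlap between regions, the 10 largest in each direction that both regions express, the 5 largest of the others, up to 6 called in opposite directions, and up to 2 from each of 33 gene lists, and added 40 genes whatever their result, 2 of which are not reported here. Unnamed gene models were left out. The members and lists were chosen with earlier results of these data known. The labels do not say that replicates are separate animals, so p-values measure the spread between libraries, which may be partly technical. Alternatives covered pseudocount, filter, scaling, weights, spread, pairing, cross-species genes, the expression threshold and left-out libraries. No mouse sequences or coordinates were used here.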

Additional observations from a re-analysis of the deposited data

Results flagged for a closer look

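The region difference was called by limma for these named genes. It is given on the log2 scale, with negative values where the forebrain response was lower. For hypothalamic peptides it was −5.24 for Pmch, −3.93 for Hcrt and −3.59 for Avp. Hcrt and Avp are expressed in forebrain only, and the HB mean of Pmch was 1.16. A hindbrain fall of like size could not have been seen for these peptides, so their values reflect the forebrain change. Of the genes below, Robo3 is expressed in forebrain only, and Gpnmb and Cxcl10 in neither tumour-free region. For neuronal and transcription factor genes it was −1.71 for Irx2, −1.66 for Rab37, −1.63 for Slc17a6, −1.51 for Calb2, −1.37 for Lhx1, −1.35 for Syt9, −1.26 for Nr2f2 and −0.51 for Stmn2. Among the others it was −1.61 for Gpnmb, −1.46 for Agt, −1.40 for Dcn and −0.88 for Aloxe3. Positive values were 0.79 for Ighm, 0.90 for Cxcl10, 0.94 for Ftx, 0.95 for Mdn1, 0.98 for Fbln2, 1.00 for Lrp4, 1.08 for Trank1, 1.12 for Robo3, 1.16 for Meg3, 1.34 for Tfcp2l1, 1.36 for Hk2, 1.42 for A2m and 1.43 for Col6a1. Several of these calls were not kept in many other settings. Calb2 was called in 14 of 28, Agt in 13 of 28, Stmn2 in 12 of 28 and Robo3 in 10 of 28. Hk2, Tfcp2l1, Fbln2 and Mdn1 were each called in 13 of 27 and Cxcl10 in 12 of 27, against 21 of 28 for Avp.

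Single libraries stood far from their group by Dixon's criterion in 16 of 138 groups of 4 tested, where chance flags about 1 in 20. In tumour-free forebrain these were replicate 1 for Fos (19.4, low) and P2ry12 (37.2, high), replicate 2 for Hk2 (3.15, high), C3 (1.25, low) and the human share of reads (0.0315%, high), replicate 3 for Lhx1 (2.26, low), Pcp2 (0.374, high) and Tph2 (0.492, low), and replicate 4 for Pmch (78.5, high), Mki67 (0.577, low) and Hoxb4 (0.0254, high). In tumour-free hindbrain they were replicate 1 for Fos (14.7, low) and Aloxe3 (7.34, high), replicate 2 for Lcn2 (5.83, high), and replicate 3 for Hcrt (0, low) and P2ry12 (23.7, high).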

How the results depend on the processing

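The number of calls was the least stable result and the direction of the called genes the most stable. Every setting reused all or most of the libraries in which these genes were called. A kept direction was therefore likely from the outset and is no test of the calls. Against 72 calls for the region difference (62 in genes both tumour-free regions express), there were 41 (22) without a filter on low values, 129 (114) with quantile normalization, 660 (610) with array weights, 409 (360) with voom on recovered reads, 173 (142) with voom and library totals (chosen after seeing the data), 42 (32) without cross-species genes and 631 (590) without replicate 1 of FB and of HB together. Without trend and robust 37 were called among genes that both regions express. For the hindbrain response, 512 calls became 294 with the stricter filter, 824 with array weights, 336 without cross-species genes and 853 without replicate 1 of FB and of HB. The forebrain response fell from 4793 to 2697 calls without cross-species genes, where fewer genes are tested. Cross-species genes were picked by their rescaled mouse level in libraries of the cultured human line alone. Those libraries held only 7297 to 16524 mouse reads, so that level does not measure human reads in brain. From the rate of such reads, human cells were expected to give at most 0.0265% of the reads of any of the 72 called genes. Leaving out 1 library at a time gave 12 to 343 calls (8 to 310 in genes both regions express), 2353 to 4996 forebrain calls and 291 to 804 hindbrain calls. The cause was not tested.

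The called genes named in the report kept their direction in every setting run. Reversals, all in genes not called, were mostly values near 0 or of large error. Exceptions with voom were Mki67, Slc6a5 and Ccl2, from 0.10 (SE 0.17), 0.32 (SE 0.20) and −0.04 (SE 0.17). Each had a mean under 1 in FB, and the part of the pseudocount in their sign was not tested. Pseudocount 0.1 gave 0.095 for Pcp2, 0.020 for Lcn2, 0.17 for Ccl2, −0.40 for Mki67 and −0.056 for Slc6a5. Pseudocount 5 gave 0.047 for Tph2, 0.013 for Cldn5, −0.012 for Tnc and −0.019 for Spp1. Cldn5 was 0.011 with median-of-ratios scaling and 0.0014 with scaling to nuclear genes, and quantile normalization gave 0.15 for Mbp and −0.013 for Tnc. Array weights gave 0.0025 for Ccl2, −0.057 for Tnc and −0.036 for Col1a1. Voom gave 0.058 for Lcn2, 0.00061 for Mbp, 0.49 for Ccl2, 0.041 for Cldn5, −0.58 for Mki67 and −0.63 for Slc6a5, and with library totals 0.41 for Ccl2, −0.0055 for Serpina3n, −0.66 for Mki67 and −0.71 for Slc6a5. Without replicate 1 of FB and of HB, Tph2 was 0.29, Ccl2 0.054 and Tnc −0.066. With 1 library left out, the ranges were −0.11 to 0.026 for Ccl2, −0.28 to 0.20 for Cldn5, −0.12 to 0.11 for Tnc, −0.46 to 0.050 for Lcn2, −0.12 to 0.072 for Mbp, −0.14 to 0.23 for Serpina3n, −0.13 to 0.22 for Spp1, −0.43 to 0.24 for Tph2, −0.014 to 0.22 for Mki67, −0.77 to 0.39 for Fos, −0.47 to 0.032 for Cd74 and −0.40 to 0.092 for H2-Aa.

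With the replicate block, 50 genes were called, 43 of them in genes both regions express and 32 shared with the 72. Named calls lost there were Meg3, Trank1, Syt9, A2m, Aloxe3, Tfcp2l1, Cxcl10, Ighm, Hk2, Robo3, Calb2, Mdn1 and Stmn2 (adjusted p 0.0608 to 0.0872, limma). Same-numbered libraries correlated at 0.19, 0.23, −0.06 and 0.37 between FB and HB and at 0.24, 0.38 and 0.44 between FBMet and HBMet. FBMet and HBMet libraries of different number correlated at −0.32 to −0.04. The labels do not say whether equal numbers mark the same animal. The reported test therefore did not pair the libraries, and pairing is not excluded. All 3 FBMet libraries correlated best with the HBMet library of their own number, and FB replicates 1, 2 and 4 with the HB library of theirs. FB replicate 3 correlated best with HB replicate 2 (0.28). For the 2 single responses no paired analysis was possible because tumour-bearing and tumour-free libraries do not share a block. Tumour-free libraries were the shallower ones, and few reads limit low genes there most.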
